A study of Mus musculus with 10 samples.

Results

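AP-1 is a family of dimeric transcription factors, and 9 of its genes were followed in RNA sequencing of mouse fibroblasts and of reprogrammed lines made from such cells. The genes were *Fos*, *Fosb*, *Fosl1*, *Fosl2*, *Jun*, *Junb*, *Jund*, *Atf3* and *Batf3*, taken by name, and all 9 were among the 18901 genes of the deposited table and passed the filter on low values. The study derived induced pluripotent stem (iPS) cells with and without Netrin-1, a secreted ligand, to ask whether clones obtained with it resemble ordinary ones. Oct4-GFP MEF, embryonic fibroblasts carrying a fluorescent reporter of the *Oct4* locus, were sequenced at passages 2 and 4. The reprogrammed cells were sequenced at passages 5 and 25 and comprised pre-iPS cells, 1 control iPS line and Netrin-1 derived iPS clones 1 and 2. All 10 libraries came from a cross of the mf1 and 129 strains. MEF were kept in DMEM with fetal calf serum and the other lines in KSR medium with LIF, so that cell type and medium cannot be told apart in comparisons with MEF. The iPS clones arose after retroviral delivery of Oct4, Sox2, Klf4 and c-Myc, and the pre-iPS line was described as one that does not reactivate the reporter or silence the retroviruses. The control condition rests on 1 line and the Netrin-1 condition on 2 clones, and the libraries of a line are passages of the same cells. In comparisons of lines the limma p-values therefore rest on the spread between passages within a line, and differences between lines are not part of that spread. In the comparison of passages they rest on how the change varies between lines. Neither measures the spread between independent derivations.

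AP-1 dimers bind short palindromic sites in promoters and enhancers. Jun proteins pair with each other or with Fos proteins, while Fos proteins need a Jun partner to bind DNA. Several of these genes are immediate early genes: growth factors and stress raise their transcription within minutes through MAP kinases, serum response factor and ternary complex factors, and their messenger RNAs are short-lived. In fibroblasts AP-1 is known for occupying enhancers of matrix and migration genes, and in reprogramming it is known as a family that holds back the loss of the fibroblast programme.

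The genes were placed on GRCm38 with GENCODE M21. *Fos* (chr12:85473890-85477273, plus strand), the best-known member, and its close relative *Fosb* (chr7:19302696-19310051, minus strand) encode activators that respond quickly to stimuli. *Fosl1* (chr19:5447547-5455946, plus strand), encoding Fra-1, and *Fosl2* (chr5:32135801-32157842, plus strand), encoding Fra-2, belong to the same subfamily and are slower to respond. *Jun* (chr4:95049034-95052222, minus strand) encodes the main activating Jun protein. *Junb* (chr8:84974484-84978718, minus strand) can oppose it in some settings, and *Jund* (chr8:70698949-70700616, plus strand) is expressed broadly without stimulation. *Atf3* (chr1:191170296-191218039, minus strand) is a stress-induced factor that often represses, and *Batf3* (chr1:191097847-191108945, plus strand) is best known from dendritic cells. Annotated exons of *Fosl1* share 57.2% of their bases with *Ccdc85b* on the opposite strand, and those of *Jund* share 52.6% with an antisense transcript. *Jun* shares 7.28% with an antisense gene and *Junb* 7.52% with *Prdx2*, also on the opposite strand. The library kit does not mark strand, so reads from such stretches cannot be assigned to either gene. *Ccdc85b* itself read 1024 and 1063 in MEF and 783 to 1216 in the iPS libraries.

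Values are read counts scaled by the authors, called normalised read counts below, and 1 read was worth 0.888 to 1.18 of that unit. The MEF libraries had the most reads on genes and also the largest value of 1 read, 1.18 and 1.06. The summed values are therefore higher in MEF than in the other libraries, and differences from MEF depend on the scaling. Depth was 38110410 to 52946856 reads on genes per library, so that counting error is small for every member except *Batf3*. The labelled identities were checked on marker lists. Over 12 fibroblast markers the summed value was 3945730 to 4126090 in MEF and 85306 to 131400 in the iPS lines. Over 9 pluripotent cell markers it was 2233 to 2745 in MEF, 134131 to 186108 in the iPS lines and 412190 to 435812 in pre-iPS cells, and 6 of the 9 passed the adjusted p and a fold of 2 as lower in pre-iPS cells than in iPS lines (*Dppa3* at 6.48 against 1099 on average). That list includes *Pou5f1* (Oct4), which the retroviruses also carried and which made up most of the sum in every library. It read 392944 and 415437 in pre-iPS cells and 91002 to 110018 in the iPS lines. Over 8 macrophage markers it was 13028 to 13148 in MEF against 572 to 1461 in the iPS lines. In the pre-iPS line *Emr1* and *Tyrobp*, which are defining macrophage genes, were at 0 in both libraries. *Cd68*, on the same list, read 1565 and 853 there against 767 and 715 in MEF. Of the 8 markers 7 passed the adjusted p and a fold of 2 as lower in pre-iPS cells than in MEF (limma). *Ptprc* passed both as higher in pre-iPS cells than in iPS lines, at 8.16 and 4.80 against at most 4.47. In bulk RNA, fewer cells of a type and less RNA per cell cannot be told apart. The plot of members by library gives each value described below.

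**Figure D1:**
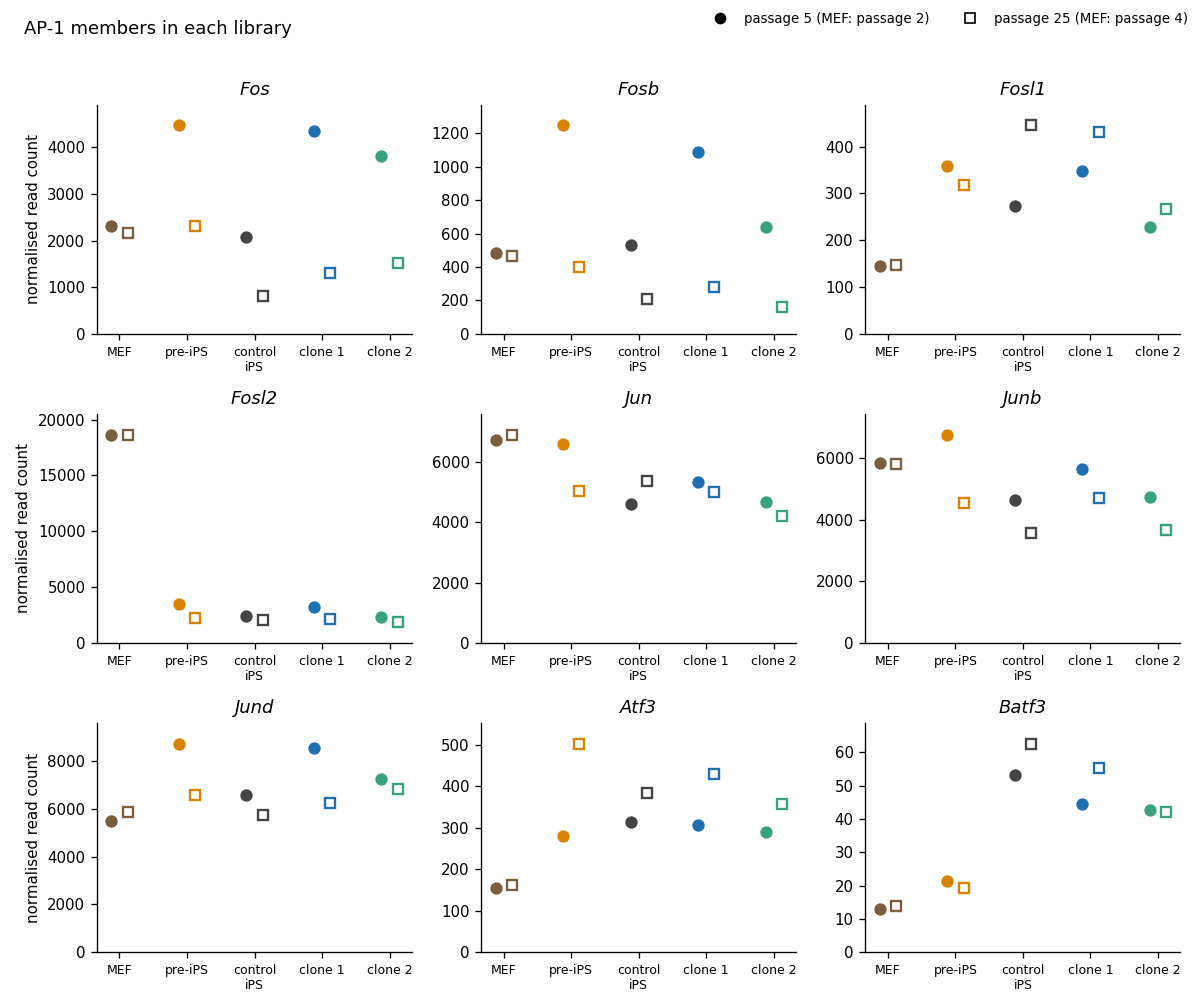
Normalised read count (y axis, linear from 0) of each AP-1 member in the 5 lines, 1 point per library; filled circles are passage 5 (passage 2 for MEF) and open squares passage 25 (passage 4 for MEF). *Fosl2* stands at 18626 and 18658 in MEF and at most at 3524 elsewhere, and *Fos* and *Fosb* are lower at passage 25 than at passage 5 in all 4 lines that have these passages.

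The largest AP-1 changes within lines separated the passages and fell on *Fos* and *Fosb*. Their promoter sequences are shown because these genes had the largest passage changes of the members. RefSeq promoters (GRCm38.p6) were found for 8 of the members, and the 250 bases before the annotated start of each are printed 5′ to 3′ on the gene's strand. The *Fos* stretch is chr12:85473640-85473889 (plus strand) and the *Fosb* stretch chr7:19310046-19310295 (minus strand). Capitals mark the sequence TGACGT, a part of the cAMP response element TGACGTCA, searched on both strands.
Fos: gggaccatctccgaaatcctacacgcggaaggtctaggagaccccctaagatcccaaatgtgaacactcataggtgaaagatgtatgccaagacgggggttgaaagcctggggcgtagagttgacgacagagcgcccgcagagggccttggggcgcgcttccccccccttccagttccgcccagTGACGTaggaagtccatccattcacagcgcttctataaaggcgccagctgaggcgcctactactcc
Fosb: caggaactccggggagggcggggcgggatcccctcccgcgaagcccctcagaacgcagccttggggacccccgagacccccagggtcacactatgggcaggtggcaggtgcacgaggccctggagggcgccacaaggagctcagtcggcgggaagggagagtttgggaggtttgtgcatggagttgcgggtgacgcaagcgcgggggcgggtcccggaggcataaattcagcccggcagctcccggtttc
The *Fos* match begins 66 bases before the start, and the *Fosb* stretch holds none. The shorter sequence TGACG was not searched for and occurs in both stretches. Among the 8 members, *Fos* and *Atf3* had this hexamer in the window of 250 bases before and 50 after the start, as did 7.51% of all 32851 promoters. None of the 8 held the palindrome TGACGTCA (1.79% of all promoters), TGAGTCA in either orientation (5.2%) or a CArG box, the site of serum response factor (1.63%). These matches describe the windows searched. Sites outside them, whether just upstream or distal, were not looked for, so the absence of a site holds for the windows alone. The RefSeq and GENCODE starts differ for some members. The *Jund* stretch, chr8:70697489-70697738, ends before the GENCODE start of that gene at 70698949. The *Atf3* stretch, chr1:191183334-191183583, lies inside the GENCODE gene, as do those of *Batf3* and *Fosl2*.

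At passage 5 *Fos* read 2077 in the control line, 4346 in clone 1, 3816 in clone 2 and 4465 in pre-iPS cells. At passage 25 it read 803, 1303, 1516 and 2317 in the same lines. It was lower at the later passage in each line, and the ranges overlapped between passages only through the control line at passage 5 and pre-iPS cells at passage 25. The fall was 2.59-fold in the control line, 3.34-fold in clone 1, 2.52-fold in clone 2 and 1.93-fold in pre-iPS cells. With the line as a block, the log2 difference of *Fos* was −1.35 ± 0.11 (SE, 8 libraries; limma, adjusted p = 0.00186).

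*Fosb* read 531 in the control line, 1087 in clone 1, 640 in clone 2 and 1248 in pre-iPS cells at passage 5. At passage 25 its values were 212, 281, 159 and 398. Every passage 25 library lay below every passage 5 library. Of the 9 members 5 were lower at passage 25 in all 4 lines, beside 20.9% of all genes tested. A further 1, *Atf3*, was higher in all 4, beside 15.1%. The share of all genes without overlap between passages was not counted. The log2 difference of *Fosb* was −1.73 ± 0.13 (SE, 8 libraries; limma, adjusted p = 0.00129), and its fall ranged from 2.51-fold in the control line to 4.01-fold in clone 2. These 2 of 9 members passed the adjusted p and a fold of 2, beside 1.69% of the 17075 genes tested, and both fell, as did 1.29% of all genes. In size of fall *Fosb* ranked 35th and *Fos* 111th among the 17075.

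The remaining Fos genes behaved unequally. *Fosl2* read 2365 to 3524 at passage 5 and 1844 to 2203 at passage 25, without overlap, and its log2 difference was −0.46 ± 0.08 (SE; limma, adjusted p = 0.0162), less than a fold of 2. *Fosl1* read 274 and then 445 in the control line, 348 and 432 in clone 1, 228 and 266 in clone 2, and 359 and 318 in pre-iPS cells. Its mean change of 0.26 ± 0.15 on the log2 scale did not pass (adjusted p = 0.283).

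Among Jun genes *Junb* was lower at passage 25 in all 4 lines, with 4633 to 6765 at passage 5 and 3568 to 4717 at passage 25. Its log2 difference was −0.40 ± 0.06 (limma, adjusted p = 0.0114), and the passages overlapped through clone 1 alone at the later passage. *Jund* read 6602 to 8734 and then 5748 to 6817, a log2 difference of −0.29 ± 0.07 (adjusted p = 0.0419), and clone 2 at passage 25 lay above the control line at passage 5. *Jun* read 4622 to 6582 and then 4194 to 5355, and it was higher at passage 25 in the control line and lower in the other 3; its mean difference of −0.11 ± 0.09 did not pass (adjusted p = 0.476).

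*Atf3* went the other way. It read 281 to 313 at passage 5 and 357 to 502 at passage 25, with no overlap, and its log2 difference was 0.48 ± 0.12 (limma, adjusted p = 0.0487). The increase was largest in pre-iPS cells, where *Atf3* stood at 281 and then 502. *Batf3* stayed between 42.1 and 62.6 in the iPS lines and at 21.4 and 19.2 in pre-iPS cells (log2 difference 0.09 ± 0.19, adjusted p = 0.784).

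By the adjusted p alone, a criterion chosen after seeing the data, 6 of 9 members differed between passages beside 10.9% of all genes, and 5 of the 6 were lower beside 7.63% of all genes. The count of 6 was 2 without either library of clone 1, 3 without either pre-iPS library and 0 without the line term, and *Fos* and *Fosb* kept the stricter call without any single library. In MEF *Fos* at passage 4 was 94.3% of its passage 2 value and *Fosb* 95.6%. No member's passage change differed between pre-iPS cells and the iPS lines after adjustment (limma interaction term, adjusted p = 1 for each, 0 genes of all tested). The difference was 0.53 ± 0.20 for *Fos*, the only member of 9 with an unadjusted p under 0.05 there. Whatever else separated the cultures at the 2 passages cannot be told apart from passage number. Beside the passage change, the summed macrophage markers read 1131 to 1900 at passage 5 and 572 to 1111 at passage 25, with 2 of 8 lower (*Csf1r* and *Cd68*). *Emr1* and *Tyrobp* were at 0 to 4.47 in all 8 libraries, while *Cd68* read 846 to 1565 at passage 5 and 354 to 853 at passage 25. The summed fibroblast markers read 85306 to 141962 and 92795 to 153059, most of it from *Fn1* (62001 to 130256 over the 8 libraries). Of these 12 markers 0 passed the adjusted p and the fold (limma), and 1, *Pdgfra*, was higher by the adjusted p alone, at 1667 to 2272 and then 2282 to 3473 (log2 difference 0.51 ± 0.06, higher in all 4 lines). The part of either marker list in the result was not tested.

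**Figure D2:**
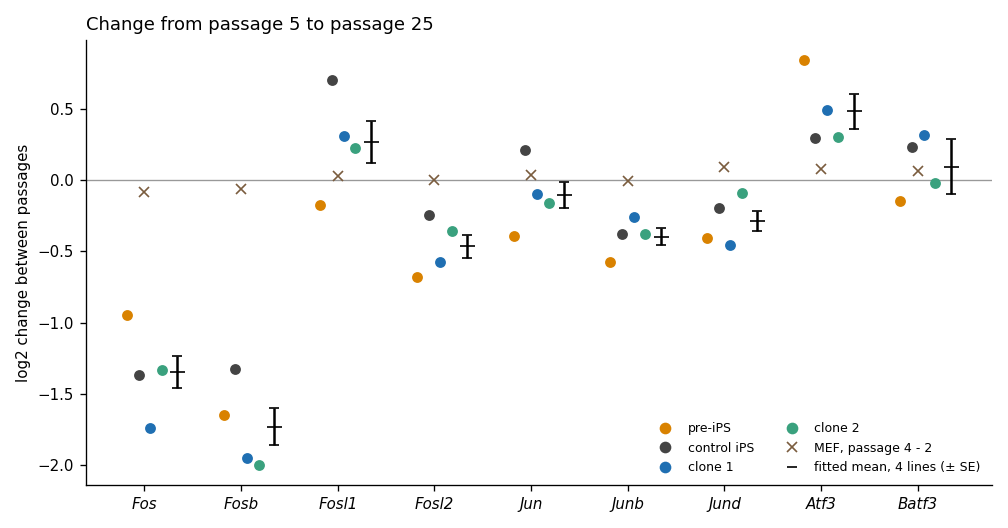
Log2 change in value + 1 from passage 5 to passage 25 (y axis) of each member in the pre-iPS line, the control line and both clones (dots), with the fitted mean of the 4 lines and its SE (black) and the change from passage 2 to 4 in MEF (crosses). *Fos* and *Fosb* lie below zero in every line, between −1.997 and −0.95, while their MEF crosses sit at −0.085 and −0.064.

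Genes around the family were read from lists of its partners, its upstream kinases and its targets. Of 21 other immediate early genes, 0 passed the adjusted p with a fold of 2 and 6 passed the adjusted p alone, all lower at passage 25 (limma). In the comparison of passages, the genes of these lists were named after their values were seen. *Btg2*, an antiproliferative gene, had a log2 difference of −0.73 ± 0.07, *Gadd45b*, a stress response gene, −0.78 ± 0.13 and *Zfp36*, which encodes an RNA decay factor, −0.55 ± 0.07. *Arc*, *Ier3* and *Nr4a1* made up the rest. Without either clone 1 library 1 of 21 remained below the threshold, and without either pre-iPS library 3. The list median was −0.15, beside −0.012 for all genes tested.

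Of 10 MAP kinase phosphatases, which switch off the kinases upstream of AP-1, 2 were lower by the adjusted p alone, *Dusp1* and *Dusp5*, and 0 passed the fold (limma). *Dusp1* read 2265 to 3221 at passage 5 and 1633 to 1728 at passage 25 (log2 difference −0.73 ± 0.09, limma adjusted p = 0.00589). Of 18 analysed MAP kinase pathway genes 2 were lower (*Map2k1* and *Rps6ka1*) and 1 higher (*Map2k6*) by the adjusted p alone. Of 6 SRF and ternary complex factors 1 was higher (*Elk4*), and of 11 tested other dimer partners 1 was lower (*Maff*). By that criterion 5 of 16 AP-1 targets were higher and 2 lower, and the list median was 0.19. The 3 of 16 that passed the fold were *Mmp3*, *Mmp10* and *Spp1*. *Mmp3*, encoding the matrix protease stromelysin-1, read 261 to 346 at passage 5 and 607 to 1075 at passage 25 (log2 difference 1.36 ± 0.11, limma adjusted p = 0.00133). *Spp1*, encoding the matrix protein osteopontin, read 12015 to 15584 and then 26427 to 34280. *Plaur*, the receptor of urokinase, was lower by 0.56 on the log2 scale, against the direction of *Plau* and *Mmp9*, which were higher.

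**Figure D3:**
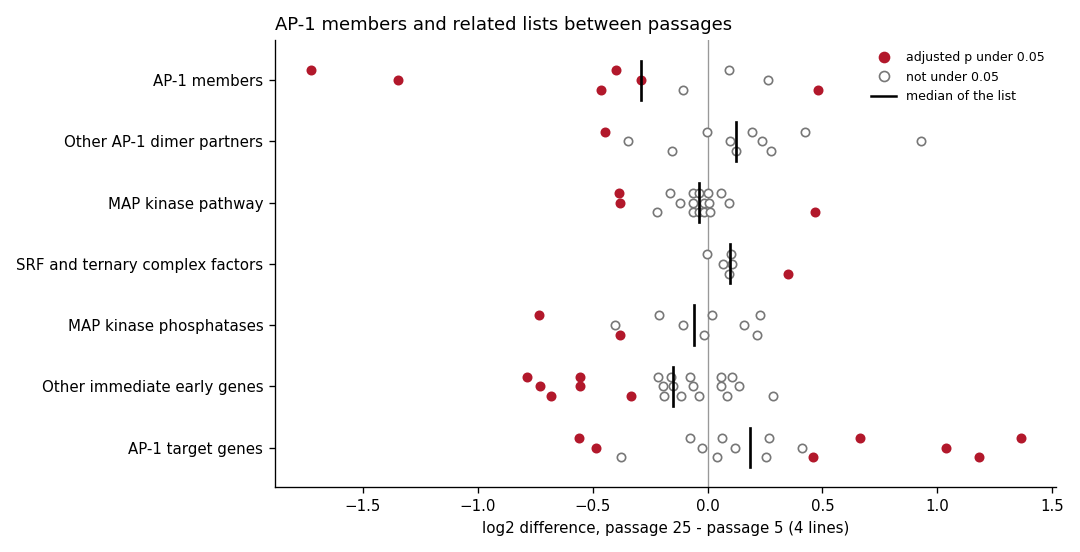
Log2 difference between passage 25 and passage 5 over the 4 lines (x axis) for the AP-1 members and 6 related lists, 1 dot per gene, red where the limma adjusted p is under 0.05, with a bar at each list's median. *Fosb* and *Fos* lie farthest to the left at −1.73 and −1.35, and *Mmp3* farthest to the right at 1.36.

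Clones derived with Netrin-1 were compared with the control line to ask whether the ligand left a mark on AP-1. At passage 5 *Fos* was 2.09 times the control value in clone 1 and 1.84 times in clone 2. At passage 25 it was 1.62 and 1.89 times the control. Pre-iPS cells were above the control as well, at 2.15 and 2.89 times. The log2 difference of *Fos* between clones and control was 0.89 in both fits, with an SE of 0.58 and an adjusted p of 0.493 in limma without a passage term. With the passage as a replicate block the SE was 0.14 and the adjusted p 0.0118. The difference is under a fold of 2 on this scale, and *Fos* was the only member of 9 to pass the adjusted p in the blocked fit, beside 7.77% of all genes. With 1 control line, a difference between lines and a difference between conditions cannot be told apart.

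No other member passed the adjusted p between the clones and the control in either fit. *Fosb* was above the control by 2.05-fold in clone 1 and 1.205-fold in clone 2 at passage 5, and at passage 25 it was at 1.33 and 0.753 of the control. The log2 difference of *Junb* was 0.19 ± 0.18, of *Jund* 0.22 ± 0.15, of *Jun* −0.06 ± 0.11 and of *Atf3* −0.02 ± 0.25 without the block. With the adjusted p and the fold 0 of 9 members were called by limma, edgeR and DESeq2. Of all 17075 genes limma called 2.11%, edgeR 387 genes and DESeq2 511. In limma 0 members had an unadjusted p under 0.05 without the block and 3 with it, beside 3066 and 4004 of all 17075 genes. In the related lists 1 gene of 6 SRF and ternary complex factors was called. *Elk3*, a ternary complex factor that can repress *Fos*, read 950 and 1270 in the control line, 2448 and 2805 in clone 1 and 2374 and 1975 in clone 2 (log2 difference 1.12 ± 0.13, limma adjusted p = 0.00375). It was higher in all 4 clone libraries. Of 16 target genes 1 was called, *Il6*, which stayed at or under 18.8 in these libraries. The kinase, phosphatase, partner and immediate early lists had 0 called genes (limma); by the adjusted p alone they had 3, the immediate early genes *Ier5*, *Cyr61* and *Plk3*, named after their values were seen.

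Clone 2 and clone 1 differed in no member by the adjusted p and the fold (0 of 9 by limma, edgeR and DESeq2). Among all genes limma called 0.966%, edgeR 193 genes and DESeq2 435. In limma 1 member had an unadjusted p under 0.05 without the block and 4 had one with it. Of all 17075 genes 2831 had one without the block and 3784 with it. The member in the fit without the block was *Fosl1*, which read 348 and 432 in clone 1 and 228 and 266 in clone 2 (log2 difference −0.65 ± 0.24, adjusted p = 0.229). With the passage as a replicate block the smallest adjusted p was that of *Fosb*, 0.0628, at a log2 difference of −0.79 ± 0.18. Of the related lists 1 gene was called, *Klf2*, named here after its value was seen in this comparison, at 1.69 on the log2 scale.

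MEF were set against the 3 iPS lines to describe what reprogramming left of the fibroblast AP-1 pattern. *Fosl2* was the only member called higher in MEF. It read 18658 and 18626 in MEF, while among the iPS lines the control had 2416 and 2042, clone 1 had 3190 and 2139 and clone 2 had 2365 and 1844. The mean was 7.99 times higher in MEF, 18642 ± 22 (SD, n = 2) against 2333 ± 470 (SD, n = 6). On the log2 scale the difference was 3.02 ± 0.20 (SE; limma, adjusted p = 1.48e-06).

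*Fosl1*, *Atf3* and *Batf3* were lower in MEF. *Fosl1* read 145 and 148 in MEF and 228 to 445, with a median of 311, in the iPS libraries (log2 difference −1.13 ± 0.20, limma adjusted p = 0.000608). *Atf3* read 154 and 162 in MEF and 290 to 430, with a median of 335, in the iPS libraries (−1.11 ± 0.24, adjusted p = 0.00212). *Batf3* was the least abundant member, with 13.1 and 13.7 in MEF and 42.1 to 62.6, with a median of 48.8, in the iPS libraries (−1.81 ± 0.22, adjusted p = 5.93e-05). None of these 3 overlapped between the groups, as held for 6 of 9 members and 80.0% of all genes tested. Quantile normalisation left all 3 under a fold of 2, at −0.82, −0.81 and −0.69, and scaling to housekeeping genes left *Fosl1* and *Atf3* there, at −0.75 and −0.72.

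Neither the Jun genes nor *Fos* and *Fosb* passed both criteria between MEF and iPS lines. *Jun* read 6737 and 6908 in MEF and 4194 to 5355 in the iPS libraries, a log2 difference of 0.49 ± 0.11 that passed the adjusted p (0.00246, limma) but not the fold. Its difference was 0.18 under quantile normalisation (limma, adjusted p = 0.174) and 0.88 with housekeeping scaling (limma, adjusted p = 6.55e-05). For *Junb* these were 0.11 and 0.78. *Junb* read 5830 and 5800 against 3568 to 5645, with a difference of 0.39 ± 0.17 (adjusted p = 0.0635), and *Jund* 5510 and 5876 against 5748 to 8538, with a difference of −0.26 ± 0.14 (adjusted p = 0.114) that was 0.13 with housekeeping scaling. *Fos*, at 2303 and 2171 in MEF, and *Fosb*, at 487 and 466, lay inside the iPS ranges of 803 to 4346 and 159 to 1087. Their log2 differences were 0.20 ± 0.55, which became −0.02 under quantile normalisation, and 0.29 ± 0.70. In all 4 of 9 members were called in this comparison, beside 48.2% of all genes, so the members' share was near the background. Of the called genes 3690 were higher and 4547 lower in MEF, and 5075 and 3647 with housekeeping scaling, which moved the median of all genes from −0.087 to 0.30.

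**Figure D4:**
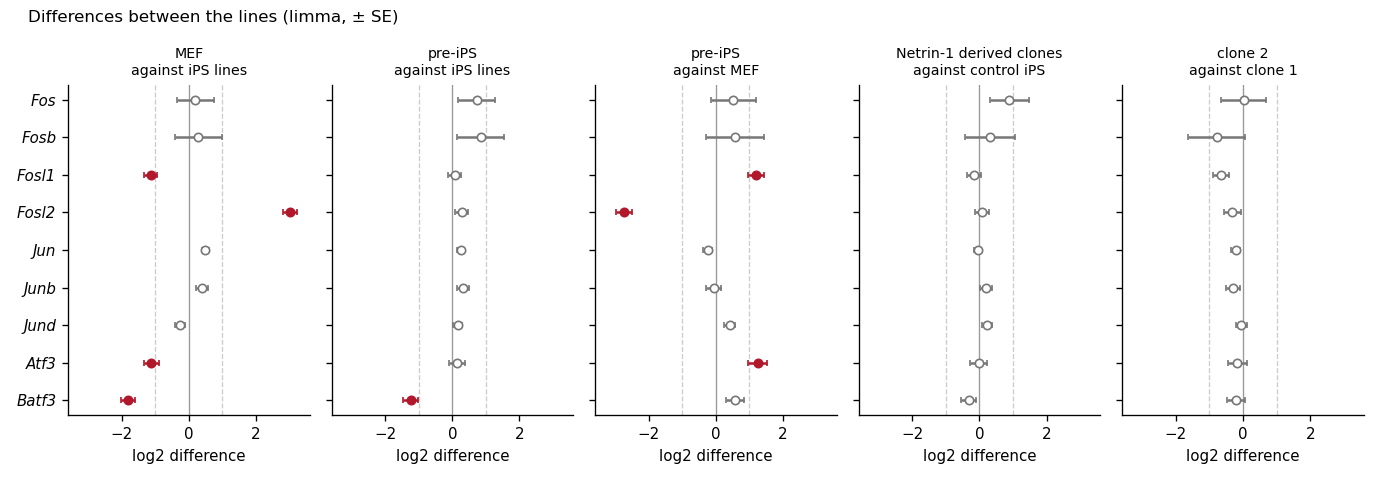
Log2 difference (x axis, limma, ± SE) of each member in 5 comparisons between lines, red where the adjusted p is under 0.05 and the fold at least 2 (dashed lines). *Fosl2* is the outermost point in MEF against the iPS lines at 3.02 and in pre-iPS cells against MEF at −2.74, and no point is red where clones are compared with the control or with each other.

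Most targets of AP-1 were higher in MEF. Of 16 target genes 10 were called higher and 2 lower (11 and 2 with housekeeping scaling), beside 3690 higher and 4547 lower of all 17075 genes, and the list median was 1.596, beside −0.087 for all genes. *Mmp13*, encoding collagenase-3, read 1009 and 915 in MEF and 8.93 to 20.6 in the iPS lines. *Spp1* averaged 189260 in MEF against 21749 in the iPS lines. *Mmp10*, the protease stromelysin-2, was lower in MEF at 11.9 and 12.7 against 72.4 to 211. Of 11 tested dimer partners 6 were called higher and 0 lower, also with housekeeping scaling, and the other 5 were not called. *Maf* averaged 2245 in MEF and 56.6 in the iPS lines, *Jdp2*, a repressor that pairs with Jun proteins, 4764 and 357, and *Batf* 62.1 and 7.58. *Maf* and *Batf* are also known from macrophages and lymphoid cells, and 7 of 8 macrophage markers were higher in MEF, *Lyz2* at 6888 against 5.98 on average. The part of such cells in these values was not tested.

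Upstream of the family the lists split. Of 10 phosphatases 5 were lower and 1 (*Dusp7*) higher in MEF, with *Dusp9* at 135 against 2830 on average, *Dusp4* at 421 against 2426, *Dusp2* at 14.4 against 60.3 and *Dusp6* at 1476 against 3501. With housekeeping scaling 3 were lower and 2 higher. Of 18 analysed kinase pathway genes 1 was higher and 3 lower. *Egfr*, the receptor of epidermal growth factor, averaged 6887 in MEF and 1893 in the iPS lines, while *Rps6ka1*, encoding the kinase RSK1, averaged 847 and 5566. The kinases *Map3k1* and *Map2k6* had log2 differences of −1.23 and −1.13. Of 6 SRF and ternary complex factors 2 were higher, *Elk3* at 1.87 and *Mkl1*, a coactivator of serum response factor, at 1.45 on the log2 scale. With housekeeping scaling 5 of these 6 were higher. Other immediate early genes were divided, with 5 of 21 higher and 5 lower. *Cyr61*, encoding a matrix-associated growth regulator, and *Egr3* were higher by 3.09 and 2.20, and *Myc* and *Arc* were lower by 4.46 and 2.85. With housekeeping scaling 10 were higher and 3 lower. *Myc* was among the factors delivered by retrovirus, and a count per gene does not separate the sources.

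Pre-iPS cells were compared with the iPS lines to see which members set apart cells that stopped short of pluripotency. *Batf3* was the member called. It read 21.4 and 19.2 in pre-iPS cells, under every iPS library (42.1 to 62.6), a separation that 41.8% of all genes tested showed, with means of 20.3 ± 1.6 (SD, n = 2) and 50.1 ± 8.3 (SD, n = 6). Its log2 difference was −1.25 ± 0.22 (SE; limma, adjusted p = 0.0025), and quantile normalisation brought it to −0.65, under a fold of 2. This was 1 of 9 members, beside 16.3% of all genes. Of all called genes 804 were higher and 1977 lower in pre-iPS cells, and 1483 and 1426 under quantile normalisation.

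*Fos* and *Fosb* read 4465 and 1248 in pre-iPS cells at passage 5, above each iPS library at that passage, and 2317 and 398 at passage 25, again above each iPS library at that passage. Without a passage term their log2 differences of 0.72 ± 0.55 and 0.85 ± 0.70 did not pass (limma, adjusted p = 0.328 and 0.366). With the passage as a replicate block the adjusted p was 0.00388 for *Fos* and 0.0032 for *Fosb*, both under a fold of 2. By the adjusted p in the blocked fit, a criterion chosen after seeing the data, 5 of 9 members differed, beside 47.8% of all genes. The other three were *Fosl2* (0.28 ± 0.09) and *Junb* (0.32 ± 0.07), higher, and *Batf3*, lower. *Fosl1*, at 359 and 318, lay within the iPS range.

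In the related lists the counts called were small. Of 11 dimer partners 2 were lower in pre-iPS cells, among them *Batf* at 1.02 and 0 against 5.13 to 10.6. Of 18 kinase pathway genes 1 was higher and 1 lower, *Egfr* at 4839 on average against 1893, and *Mapk10*, a kinase of the JNK group, at 8.16 and 3.84 against 53.7 on average. Of 10 phosphatases 1 was lower, *Dusp9*, at 459 against 2830. Of 21 immediate early genes 2 were higher (*Nr4a2* and *Myc*, named after their values were seen) and 2 lower, the latter *Ctgf*, a matrix-associated growth regulator, at 1276 against 4054, and *Klf2*, a Krüppel-like factor, at 764 against 2582. Of 16 targets 1 was higher, *Cd44*, the hyaluronan receptor, at 17357 against 8189 ± 2174 (SD, n = 6). List medians lay between −0.088 and 0.098, beside 0.0011 for all genes, and no gene of the 6 SRF and ternary complex factors was called.

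Pre-iPS cells differed from MEF in *Fosl2*, which was lower, and in *Fosl1* and *Atf3*, which were higher. *Fosl2* read 3524 and 2203 in pre-iPS cells against 18658 and 18626 in MEF (log2 difference −2.74 ± 0.25, limma adjusted p = 1.47e-05). *Fosl1* was higher in pre-iPS cells by 1.20 ± 0.24 (adjusted p = 0.00179) and *Atf3* by 1.24 ± 0.29 (adjusted p = 0.00429). These 3 of 9 members stood beside 43.2% of all genes. Quantile normalisation and housekeeping scaling each left *Fosl2* alone past the fold, and *Atf3*, which read 281 and 502 in pre-iPS cells, had a difference of 0.82 without the passage 25 library. *Batf3*, at 21.4 and 19.2 against 13.1 and 13.7, differed by 0.56 ± 0.27 (adjusted p = 0.0866). Of all genes 3820 were called higher and 3563 lower in pre-iPS cells, and 2887 and 5006 with housekeeping scaling. Around the family 11 of 16 targets were lower in pre-iPS cells than in MEF and 4 higher, 4 of 11 partners were lower (*Batf*, *Jdp2* and *Maf* among them), and 6 of 10 phosphatases were higher and 1 lower (3 and 1 with housekeeping scaling). The summed macrophage markers stood at 1111 to 1900 in pre-iPS cells against 13028 to 13148 in MEF, and their part in the partners' values was not tested.

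Levels of the 9 genes were compared with each other only per kb of exon, over the union of annotated exons. The shares depend on that length. The longest transcript of *Fosl2* has 6537 bases against 9680 in the union, that of *Junb* 1809 against 2301, and *Jund* has 1668 in both. Per kb of the longest transcript, *Fosl2* and *Junb* therefore stand higher beside *Jund* than in the shares below. Jun genes took most of the summed value in every library, with 71.7 to 72.7% in MEF, 77.4 to 86.7% in the iPS lines and 78.6 and 81.7% in pre-iPS cells. *Jund* was the largest single share, at 29.8 and 31.2% in MEF and 42.9 to 50.0% in the iPS lines. Of the exon bases, 52.6% in *Jund* and 57.2% in *Fosl1* are shared with a gene on the opposite strand. Reads there cannot be assigned, so the shares of both may hold reads of the other gene. *Fosl2* made up 17.39 and 17.05% of the total in MEF and 2.33 to 2.79% in the iPS lines, and the Fos subfamily as a whole 27.6 and 26.5% in MEF. In the iPS lines the Fos subfamily took 15.1 to 21.1% at passage 5 and 10.5 to 12.1% at passage 25, with *Fos* alone at 9.87 to 16.02% and then 4.43 to 7.88%. *Atf3* and *Batf3* together stayed at or under 2.82%.

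Shares were tested between MEF and iPS libraries and between pre-iPS and iPS libraries, 18 tests in all, by exact two-sided permutation of the libraries. Against the iPS lines, MEF had 14.6 percentage points more *Fosl2* and 14.2 points less *Jund*, and their shares of *Atf3* and *Batf3* were lower. The share of *Batf3* was lower in pre-iPS cells. Each of these 5 reached the smallest exact p that 2 against 6 libraries allow, 0.0357, and after adjustment over the 18 tests none passed (exact permutation, adjusted p = 0.129). Shares of a library sum to a fixed total, so a larger *Fosl2* share lowers the others. The value of *Jund* itself did not pass between MEF and iPS lines (log2 difference −0.26 ± 0.14, limma adjusted p = 0.114).

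**Figure D5:**
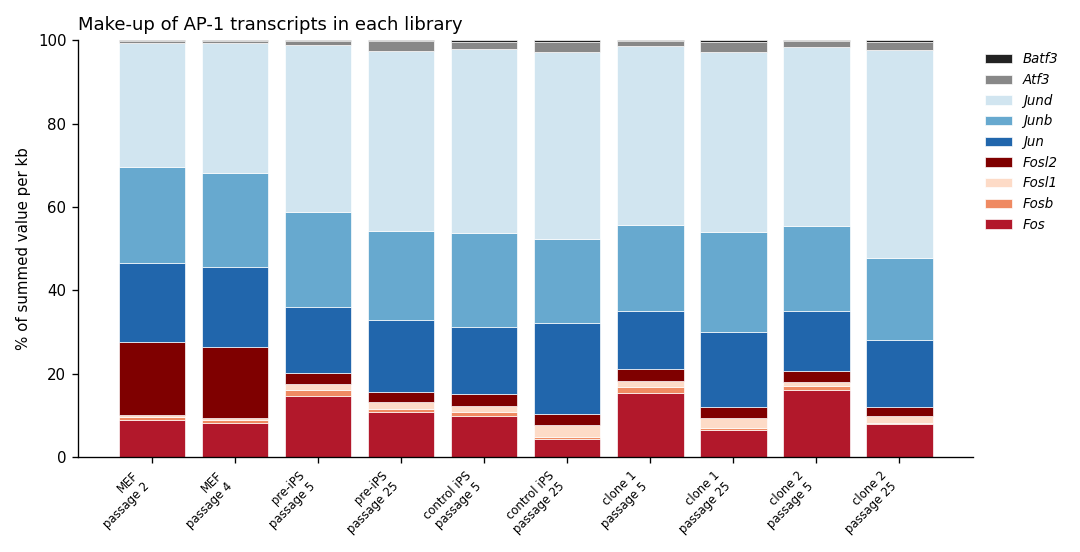
Share of each member in the summed normalised read count per kb of exon (y axis, %), 1 stacked bar per library. *Fosl2* takes 17.39 and 17.05% in MEF and at most 2.80% elsewhere, and *Fos* takes less at passage 25 than at passage 5 in all 4 lines.

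How the members ran together was described over the 8 pre-iPS and iPS libraries, which share lines and passages, so that no p is given. On log2(value + 1) the Pearson correlation of *Fos* was 0.91 with *Jund* and 0.90 with *Fosb*, and that of *Fosb* was 0.95 with *Fosl2* and 0.93 with *Junb*. *Atf3* ran against *Fos* (−0.60) and *Fosb* (−0.62). Of all genes tested, those most like *Fos* were *Hagh* (0.99), *Gpr35* and *2410127L17Rik*, and those most like *Fosb* were *Bsg*, *Gsn* and *Zbtb7b* (0.99, 0.99 and 0.98). *Fosl1* was followed most closely by *Zyx* and *Slc22a4* (0.96 each), *Fosl2* by *Eif3h* and *2310047M10Rik* (0.98 each) and *Jun* by *2210408F21Rik* and *Scamp4* (0.98 and 0.97). *Junb* was closest to *Gtpbp2* and *Tnfrsf9* (0.98 each), *Jund* to *Slc4a11* (0.99), *Atf3* to *Tnrc6a* (0.98) and *Batf3* to *Prtg* (0.99). These genes were picked as the highest correlations among all genes tested, over only 8 libraries. Values this high can arise from the picking alone, so they do not single out companions of the members.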

How the data were processed

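Polyadenylated RNA of 10 libraries was sequenced as 50 nt single reads, 10 libraries to a lane, from a TruSeq kit that does not mark strand. The submitters' processing notes name CASAVA 1.8.2, FastQC, TopHat2 2.0.8b, HTSeq 0.5.3p9, edgeR and mm10, with no role or order given. The deposited values are signal: read counts per gene, which the authors scaled by edgeR. Their totals are not equal across libraries and are highest in MEF. The values were turned back into reads (99.92 to 100% whole within 0.05) for the count tests and for depth. Listed genes had at least 10 reads over all libraries. A gene entered the tests if 2 or more libraries reached a value of 10 (17075 of 18901).

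Values were compared as log2(value + 1) in limma 3.58.1 (R 4.3.3, empirical Bayes with trend), with 1 mean per line over 10 libraries, or with the line as a block for passage over 8. Fold changes are on this scale, which understates those of low genes. A gene was called at a Benjamini-Hochberg adjusted p under 0.05 over all genes and an absolute log2 difference of at least 1. Samples were grouped by their labels, and passage numbers are the replicate numbers. Passage numbers paired the libraries across lines, since deviations from line means correlated at 0.235 to 0.504 in all 6 pairs of lines. Alternatives were pseudocounts of 0.5 and 5, no filter or a mean of at least 50, quantile normalisation, scaling to *Gapdh*, *Actb*, *Hprt* and *Tbp*, edgeR 4.0.16 (quasi-likelihood) and DESeq2 1.42.0 on recovered reads, the compared lines alone, the passage as a replicate block and leaving out each library. Shares were also computed per kb of the longest transcript. Calls at the adjusted p alone and the interaction of passage and line were added after seeing the data. The steps were tested on simulated data.

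All 9 members were named. From each list the 4 called genes with the largest difference between MEF and iPS lines and the 2 with the largest between pre-iPS and iPS lines were named, and for each member up to 3 genes of highest correlation. The members and lists were chosen with earlier results of these data known. Some genes that the rule names are not reported here. Gene models came from GENCODE M21 and promoters from RefSeq (GRCm38.p6).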

Additional observations from a re-analysis of the deposited data

Results flagged for a closer look

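*Batf3* in clone 1 at passage 25 read 55.4, away from the other 3 Netrin-1 derived libraries at 42.1 to 44.4. The gap was 0.829 of the range, just past the limit for 4 samples, in 1 of the 36 groups of libraries examined, and chance sets apart a library in about 1 group of 20. For *Fosl1* the passage change of pre-iPS cells less that of the iPS lines was −0.587 on the log2 scale. It was lower at passage 25 in pre-iPS cells and higher in all 3 iPS lines, and the limma interaction term did not pass (limma, adjusted p = 1). *Fosl1* shares 57.2% of its exon bases with a gene on the opposite strand.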

How the results depend on the processing

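The 10 called differences of single members kept their direction in all 185 alternatives computed and lost the call in 13. The other 44 member differences gained it in none of 844 and turned direction in 37, over 20 differences. Called members between MEF and iPS lines numbered 4, and 1 under quantile normalisation and 2 with housekeeping scaling. Between pre-iPS and iPS lines 1 became 0 under quantile normalisation and 0 with a mean of at least 50, a filter that leaves *Batf3* untested. Between pre-iPS cells and MEF 3 became 1 under either scaling and 2 to 3 with 1 library left out. Between passages 2 became 0 with no line term and 6 by the adjusted p alone. With the passage as a replicate block the called members numbered 1 for pre-iPS cells against iPS lines, 0 for clones against control and 0 for clone 2 against clone 1, as without it. By the adjusted p alone in the blocked fits, added after seeing the data, they were 5 for pre-iPS cells against iPS lines and 1 for clones against control. The block changed no other call. The 18 share differences were recomputed with each library left out and per kb of the longest transcript. They moved by less than the SD of the iPS libraries in 195 of these alternatives and by that or more in 3. No share test passed in any of them.

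Directions that turned belong to differences that were not called. For MEF against iPS lines *Fos* was −0.0172 (quantile) and *Jund* 0.13 (housekeeping). For pre-iPS cells against MEF *Jun* was 0.0375 and *Junb* 0.17 (quantile) and *Jund* −0.0016 (housekeeping). For clone 2 against clone 1 *Fos* was −0.0414 (housekeeping), −0.0836 (edgeR) and −0.0866 (DESeq2). With 1 library left out, MEF against iPS lines ranged from −0.0908 to 0.49 for *Fos* and from −0.0452 to 0.62 for *Fosb*. Pre-iPS cells against iPS lines ranged from −0.0475 to 0.19 for *Fosl1*, −0.0604 to 0.62 for *Fosl2*, −0.0488 to 0.36 for *Jund* and −0.29 to 0.55 for *Atf3*. Pre-iPS cells against MEF ranged from −0.26 to 1.39 for *Fosb* and −0.36 to 0.22 for *Junb*. Clones against control ranged from −0.34 to 0.99 for *Fosb*, −0.53 to 0.18 for *Fosl1*, −0.0714 to 0.22 for *Fosl2*, −0.16 to 0.0487 for *Jun* and −0.17 to 0.12 for *Atf3*. Clone 2 against clone 1 ranged from −0.85 to 0.88 for *Fos*, −1.79 to 0.21 for *Fosb*, −0.28 to 0.17 for *Jund* and −0.42 to 0.0732 for *Atf3*.

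Over all genes, calls between pre-iPS and iPS lines went from 2781 to 1758 with a mean of at least 50. Calls between clones and control went from 360 to 134 with those lines alone, 564 with the block and 120 to 419 with 1 library left out. Calls between clones went from 165 to 106 with a mean of at least 50, 435 in DESeq2, 6 with those lines alone, 327 with the block and 14 to 260 with 1 library left out. Calls between passages went from 289 to 6 with no line term and 94 to 288 with 1 library left out. The causes were not tested. Where a left-out library leaves a line with 1, that library is assumed to vary like the others. Depth limits *Batf3* alone among the members.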
